A study of Homo sapiens with 8 samples.

Results

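Antisense RNAs are transcripts read from the DNA strand opposite to a named gene, and the symbol of that gene followed by -AS and a number is how they are named. They were followed here in RNA-seq of cells labelled Caco-2, an established line derived from a human colorectal adenocarcinoma. The members were chosen by their level: they were the entries of the expression table whose symbol ends in -AS and a number and whose TPM (transcripts per 1e+06 transcripts) was 1 or more in at least 4 of the 8 samples. Of 1321 entries with such a symbol, 247 (18.7%) met this rule, out of 63816 entries in all. They stood for 246 RNAs, since DHRS4-AS1 was listed under 2 gene identifiers with the same values in every sample. Each was set beside its sense gene, the gene named before -AS.

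There were 2 groups of 4 samples. The empty vector samples carried pCDNA-3.1 without an insert, and the Siglec-XII samples carried the same plasmid with SIGLEC12, which encodes Siglec-XII, a cell surface receptor of the Siglec family. All 8 were cells labelled Caco-2, selected with G418, the drug to which this plasmid gives resistance, and are described as stable clones. Each group descended from its own transfection, so a difference between the selected lines and an effect of Siglec-XII cannot be told apart. The study's methods describe technical replicate libraries and the series text gives fewer cultures per group than the samples listed, so p-values measure the spread between these samples, which may be technical. In bulk RNA, fewer cells with a transcript and less of it per cell cannot be told apart.

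Many antisense RNAs begin beside the start of a coding gene and run away from it, because a promoter can fire in both directions. Others begin inside the gene or past its end and run back across it. Most are long non-coding RNAs, and many are made at low levels and degraded by the nuclear exosome. Some act on their partner by opening or closing its chromatin, by pairing with its RNA or by being transcribed through it, and for most no role is known.

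The samples were first checked against their labels. SIGLEC12 was at 0.11 ± 0.05 (SD, n = 4) on the log2(TPM + 1) scale in the empty vector samples and at 10.70 ± 0.06 with Siglec-XII (two-sided exact permutation test, p = 0.0286, the smallest that 70 labellings allow). The 5 general epithelial markers (EPCAM, KRT8, KRT18, KRT19, CDH1) were at 8.06 to 12.22 in all samples. Of 10 colon markers, CDX1 (7.01 to 7.38) and CDX2 (5.13 to 5.64) passed the level filter, while KRT20, FABP1 and SI were listed at 0 in all 8 samples and VIL1 did not exceed 1.20. These absences go against the label of a colorectal line in all 8 samples, and the identity of the cells was not tested. Of 10 trophoblast markers, 7 passed, with HSD3B1 (8.31 to 8.53) and PAGE4 (7.87 to 8.44) the most abundant. CGA, ERVW-1, ERVFRD-1 and PSG1 passed but did not exceed 1.23, 1.37, 1.80 and 1.77. LEP, CGB3 and GCM1 did not pass, at no more than 0.06, 0.30 and 0.88. The summed TPM of the list was 637 to 703 in the empty vector samples and 569 to 652 in the Siglec-XII samples. The fibroblast list passed for 3 of 4 genes, with a summed TPM of 63.1 to 77.7 and 73.6 to 79.5, and the leukocyte list for CD14 only, with sums of at most 1.96. The table holds no counts, so the depth of each library is unknown and no counting error can be given.

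Of the 1321 entries, 289 were at 0 in every sample and 785 were above 0 without meeting the rule, of which 111 reached 1 TPM in 1 to 3 samples. Among the members, 158 were at 1 TPM or more in all 8 samples and 17 in only 4. SSSCA1-AS1 was the single member that passed in all 4 empty vector samples and in no Siglec-XII sample, so it had to differ between the groups, and 43 members passed only by counting samples of both groups. By the value in the fourth-highest sample, the members just inside the limit were SSSCA1-AS1, GAS5-AS1 and IDI2-AS1, each at 1.0 on the log2(TPM + 1) scale. Just outside it were ARAP1-AS1 (0.99), ST20-AS1 (0.99) and SEC24B-AS1 (0.97).

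The antisense RNAs and their sense genes lay in 6 arrangements, most often start to start. Positions were taken from the GENCODE annotation on GRCh37 for 239 pairs, and in all 239 the members lay on opposite strands. The bodies overlapped head to head, start facing start, in 87 pairs and tail to tail in 47. The antisense RNA lay inside the sense gene in 45 pairs and held the whole sense gene within itself in 24. In 33 pairs the bodies were divergent and apart, and in 3 they faced each other without touching. The starts were within 1000 bp of each other in 76 pairs, with the antisense start upstream of the sense start in 31 and inside the sense gene in 45. Since the annotation gives the outermost start of any isoform, the start used in these cells can differ.

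**Figure D1:**
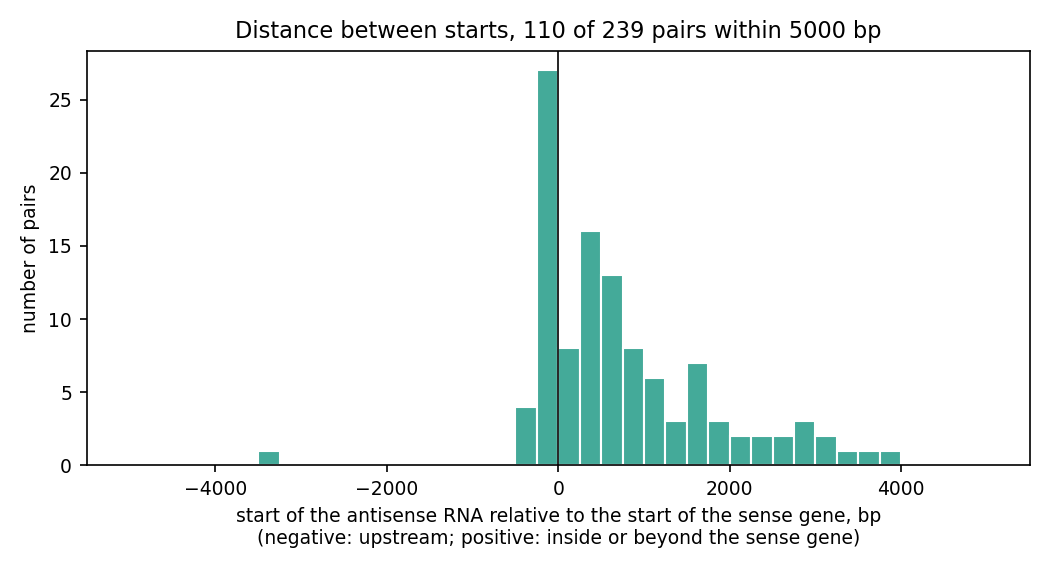
Number of pairs (vertical axis) by the start of the antisense RNA relative to the start of the sense gene in bp (horizontal axis, 250 bp bins, negative values upstream) for the 110 of 239 pairs within 5000 bp. The tallest bar stands just upstream of the sense start, and a broader run of pairs has the antisense start inside or beyond the sense gene.

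RefSeq (GRCh38.p14) held a promoter window, from 250 bases before to 50 after the annotated start, for 152 of the 247 members, and for both genes of 90 pairs on opposite strands. In 21 of these 90 pairs (23.3%) the antisense start fell inside the promoter window of the sense gene. It was upstream of the sense start in all 21, at a median distance of 115 bp. With 250 bases before the sense start and 50 after it, the window itself favours upstream starts and limits the distance. Of the 21 windows, 5 are printed here because they hold the widest level gap of the 21 (TPT1), the most abundant antisense RNA (NCBP2), the single antisense RNA of the 21 whose unadjusted p was 0.05 or less (SAP30L), the closest starts (COX10) and an antisense RNA above its sense gene (FOXD3). They are written 5′ to 3′ on the strand of the sense gene, and the capitals mark the stretch from the antisense start to the sense start, from whose ends the 2 genes are read outward.
TPT1 promoter window, chr13:45341134-45341433, minus strand: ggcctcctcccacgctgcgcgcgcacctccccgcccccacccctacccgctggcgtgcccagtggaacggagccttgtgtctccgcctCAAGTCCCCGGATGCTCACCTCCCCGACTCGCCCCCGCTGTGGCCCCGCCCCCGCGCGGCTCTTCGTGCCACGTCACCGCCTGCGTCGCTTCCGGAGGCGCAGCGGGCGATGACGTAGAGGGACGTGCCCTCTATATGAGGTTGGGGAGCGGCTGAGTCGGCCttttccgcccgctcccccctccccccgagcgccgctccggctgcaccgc
NCBP2 promoter window, chr3:196942479-196942778, minus strand: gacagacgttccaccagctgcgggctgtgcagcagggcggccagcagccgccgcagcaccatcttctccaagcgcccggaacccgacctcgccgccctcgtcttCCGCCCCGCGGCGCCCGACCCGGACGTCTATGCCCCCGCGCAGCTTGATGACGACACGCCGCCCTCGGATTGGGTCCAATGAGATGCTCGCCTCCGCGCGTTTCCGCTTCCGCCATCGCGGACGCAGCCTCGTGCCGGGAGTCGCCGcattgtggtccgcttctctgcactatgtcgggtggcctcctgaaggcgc
SAP30L promoter window, chr5:154445747-154446046, plus strand: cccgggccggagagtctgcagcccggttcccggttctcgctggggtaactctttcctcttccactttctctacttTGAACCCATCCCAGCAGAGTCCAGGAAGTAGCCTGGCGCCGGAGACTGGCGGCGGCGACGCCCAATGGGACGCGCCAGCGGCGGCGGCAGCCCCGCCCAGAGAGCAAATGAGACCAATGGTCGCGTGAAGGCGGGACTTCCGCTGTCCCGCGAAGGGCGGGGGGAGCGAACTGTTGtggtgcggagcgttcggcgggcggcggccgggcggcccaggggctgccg
COX10 promoter window, chr17:14069254-14069553, plus strand: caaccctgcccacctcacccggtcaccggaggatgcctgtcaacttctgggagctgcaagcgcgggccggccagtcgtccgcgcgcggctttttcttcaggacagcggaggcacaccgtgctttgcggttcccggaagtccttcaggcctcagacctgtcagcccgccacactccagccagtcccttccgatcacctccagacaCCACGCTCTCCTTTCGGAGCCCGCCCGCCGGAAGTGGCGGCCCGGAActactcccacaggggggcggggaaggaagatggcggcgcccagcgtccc
FOXD3 promoter window, chr1:63322317-63322616, plus strand: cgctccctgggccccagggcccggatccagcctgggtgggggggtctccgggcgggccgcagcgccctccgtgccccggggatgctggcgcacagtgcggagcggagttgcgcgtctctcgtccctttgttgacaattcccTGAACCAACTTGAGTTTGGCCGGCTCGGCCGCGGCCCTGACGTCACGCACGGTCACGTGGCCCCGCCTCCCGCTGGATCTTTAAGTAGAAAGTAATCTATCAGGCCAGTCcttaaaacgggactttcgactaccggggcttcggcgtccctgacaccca

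The capital stretch was 163 bases long for TPT1, 147 for NCBP2, 176 for SAP30L, 47 for COX10 and 110 for FOXD3. These windows were rich in G and C, with 74% in TPT1, 70% in NCBP2, 69.7% in SAP30L, 68% in COX10 and 66.3% in FOXD3, and held 37, 40, 34, 27 and 29 CpG dinucleotides in that order. Over the 152 members with a window, the median GC content was 64.7% and the median number of CpG dinucleotides 25, beside 58.7% and 14 over all 35114 windows of the same length. The letters TATAAA, searched on both strands, stood in 9 of the 152 windows (5.92%) and in 11.5% of all windows. The members were chosen by level and the 35114 windows were not. These values therefore do not compare antisense RNAs with other expressed genes. A match or its absence describes these letters only and says nothing of which factors bind there.

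The RNAs of the 21 shared windows were at a median level of 1.76 on the log2(TPM + 1) scale and their sense genes at 4.83. TPT1, which encodes a very abundant growth-related protein, was at 12.42 to 12.58 in the empty vector samples and at 12.12 to 12.29 in the Siglec-XII samples, while TPT1-AS1 was at 2.13 to 2.64 and 2.18 to 2.82. TPT1 thus stood above its antisense partner in every sample, with the 2 starts in 1 window. NCBP2 encodes a cap-binding protein, and NCBP2-AS2, the only member annotated as protein-coding, was at 4.92 ± 0.07 and 4.97 ± 0.14 beside NCBP2 at 6.84 ± 0.11 and 6.79 ± 0.07. COX10, for heme A synthesis in mitochondria, was at 4.36 ± 0.15 and 4.44 ± 0.10, and COX10-AS1 at 3.07 ± 0.26 and 2.91 ± 0.21. The order was the other way in 2 of the 21. FOXD3-AS1 was at 2.73, 3.03, 2.87 and 2.72 in the empty vector samples and 2.75, 1.94, 2.48 and 2.96 with Siglec-XII, while FOXD3, a transcription factor of pluripotent and neural crest cells, did not exceed 1.0 in any sample. TRIM52-AS1 (2.94 ± 0.18 and 2.99 ± 0.09) was above TRIM52 (2.39 ± 0.16 and 2.49 ± 0.16), a gene of the TRIM family.

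Members were mostly low. Their mean levels had a median of 1.70 on the log2(TPM + 1) scale, with quartiles of 1.27 and 2.46, and the median of their mean TPM was 2.32. In TPM, 105 members were under 2, 84 from 2 to under 5, 26 from 5 to under 10, 27 from 10 to under 50 and 5 at 50 or more. The 1099 other long non-coding RNAs that passed the same filter had a median level of 1.62 and quartiles of 1.21 and 2.46, and the 12080 protein-coding genes a median of 4.34. The members together made up 2657 ± 142 TPM in the empty vector samples and 2486 ± 39.9 with Siglec-XII. LRRC75A-AS1 alone gave 1300 ± 93.9 and 1081 ± 27.8 TPM of that sum, and without it the sum was 1357 ± 51.0 and 1406 ± 26.5.

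LRRC75A-AS1 was by far the most abundant member. It is named SNHG29 in the annotation, a host of small nucleolar RNAs, and lies on chromosome 17 at 16342081 to 16383563 (GRCh37, plus strand), tail to tail with LRRC75A. It was at 1202, 1276, 1296 and 1428 TPM in the empty vector samples and at 1077, 1053, 1119 and 1072 TPM with Siglec-XII. The lowest empty vector sample was above the highest Siglec-XII sample.

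The next members by level were 5 to 6 log2 units high. CHMP1B-AS1 was at 64.5 ± 9.42 and 64.9 ± 8.87 TPM, but all 553 of its exon bases lie within exons of CHMP1B, a subunit of the membrane-remodelling ESCRT-III complex. THAP9-AS1, beside a gene derived from a DNA transposase, was at 58.7 ± 1.74 and 62.9 ± 3.45 TPM, and HOXB-AS3, named for the HOXB cluster of body-axis genes, at 53.4 ± 2.80 and 54.0 ± 3.40 TPM. FGD5-AS1 was at 43.8, 47.6, 47.7 and 50.4 TPM in the empty vector samples and 53.5, 52.7, 55.3 and 55.4 with Siglec-XII, with no overlap between the groups.

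Antisense RNAs stood below their sense gene in most pairs. The sense gene had an entry for 242 members. The other 5 were HOXA-AS2, HOXB-AS1, HOXB-AS3 and HOXD-AS2, named for gene clusters, and RPARP-AS1. TPM counts transcripts per length, so the 2 levels of a pair can be compared. The antisense RNA was above its sense gene in 63 pairs and below it in 179, and in 37 of the 63 the sense gene itself did not pass the level filter. The level rule was asked of the members and not of the sense genes, so the order in those 37 pairs largely followed from the rule. In the other 26 of the 63 the sense gene passed the filter. The median difference, antisense minus sense, was -1.95 log2 units with quartiles of -3.79 and 0.15. The antisense RNA was above in all 8 samples for 56 pairs and below in all 8 for 169, and the order varied between samples for 17. Among the 78 pairs whose exons do not overlap the antisense RNA was above in 25, and the sense gene passed the filter in 64 of the 78. Among the 161 whose exons overlap it was above in 38, and the sense gene passed in 138.

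The pairs with the antisense RNA furthest above were LRRC75A-AS1 (8.58 log2 units above LRRC75A), NUTM2A-AS1 (5.02), NUTM2B-AS1 (4.15), FGD5-AS1 (4.03), BFSP2-AS1 (4.0) and VPS9D1-AS1 (3.47). In each the sense gene was low, at a mean of 1.66 or less. FGD5, a guanine nucleotide exchange factor of blood vessel cells, was at 1.54 ± 0.14 and 1.79 ± 0.10, and BFSP2, a filament protein of the eye lens, at 1.35 ± 0.33 and 1.22 ± 0.58. NUTM2A-AS1, NUTM2B-AS1, DHRS4-AS1 and RGPD4-AS1 lie in families of near-identical copies, between which reads may have been divided, and their levels are uncertain.

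The pairs furthest the other way were GNAS-AS1 (-10.11), TPT1-AS1 (-9.87), GAS5-AS1 (-7.24), HM13-AS1 (-7.12), ATP2B1-AS1 (-7.00) and SRP14-AS1 (-6.95). GNAS encodes the stimulatory G protein alpha subunit and lies in an imprinted region. It was at 11.05 to 11.28 in all samples, beside GNAS-AS1 at 0.42, 1.16, 0.98 and 1.22 in the empty vector samples and 1.0, 0.80, 1.20 and 1.26 with Siglec-XII. ATP2B1 is a plasma membrane calcium pump, SRP14 a subunit of the signal recognition particle and HM13 the signal peptide peptidase. GAS5 is itself a non-coding host of small nucleolar RNAs.

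**Figure D2:**
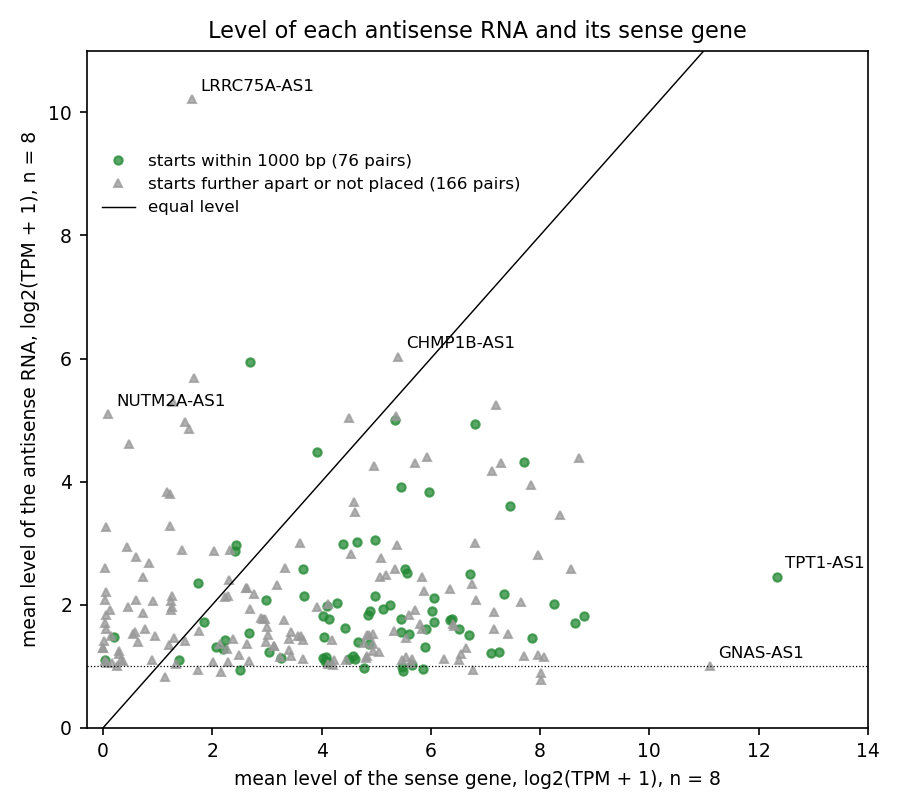
Mean level of each antisense RNA (vertical axis) against that of its sense gene (horizontal axis), both log2(TPM + 1) over 8 samples, for 242 pairs. Green circles are the 76 pairs with starts within 1000 bp, grey triangles the other 166, the solid line equal levels and the dotted line the level of 1. Most points lie below the solid line. The antisense levels form a low band, whose lower edge follows from the level rule, which was not asked of the sense genes.

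Over the 242 pairs the 2 levels had a Pearson r of 0.04 and a Spearman rho of 0.06, given as a description across pairs that share the same libraries. The level rule left out low antisense RNAs and was not asked of the sense genes, so these values describe the members only. The levels were also summed up by arrangement. With starts within 1000 bp the sense gene had a median level of 4.87 and the antisense RNA was above it in 7 of 76 pairs, while with starts further apart the sense median was 3.19 and the antisense RNA was above in 56 of 163. The antisense medians were 1.73 and 1.65. The sense gene passed the level filter in 74 of the 76 pairs and in 128 of the 163. Where the sense gene lay inside the antisense RNA, the antisense RNA was above in 14 of 24 pairs, with a median of 1.61 beside 1.0 for the sense gene. The sense gene passed the level filter in 12 of these 24.

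Exons shared with the sense gene bear on how these levels can be read. In 161 pairs some exon bases of the antisense RNA lay within exons of the sense gene, on the opposite strand, at a median of 7.97% of the antisense exon bases, and in 78 none did. The share was over 50% in 11 members, among them CHMP1B-AS1 (553 of 553 bases), RNF185-AS1 (353 of 353), LIMD1-AS1 (3150 of 4528) and PITPNA-AS1 (384 of 601). The library kits are strand-specific, but whether the quantification used strand is not given in the sources used here, so reads from those bases may have come from either strand. The annotation classed 240 members as long non-coding RNAs, EMC3-AS1, SLC44A3-AS1 and SVIL-AS1 as pseudogenes and NCBP2-AS2 as protein-coding, and did not hold 3 entries. It gave 24 members another symbol, 17 of them ending in -DT for a divergent transcript.

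By the role of the sense gene, the 22 members beside developmental transcription factors had a median level of 1.67, with HOXB-AS3 the highest. Their sense genes with an entry had a median of 2.47. GATA2-AS1 was at 4.15 ± 0.15 and 4.20 ± 0.13 and GATA3-AS1 at 2.54 ± 0.21 and 2.62 ± 0.22, beside GATA2 (7.03 ± 0.07 and 7.22 ± 0.02) and GATA3 (8.64 ± 0.22 and 8.49 ± 0.10), factors of blood, breast and placental cells. Both antisense RNAs lay well below their genes. PAX8-AS1 was the reverse, at 4.85 ± 0.09 and 4.87 ± 0.06 beside PAX8, a thyroid and kidney factor, at 1.60 ± 0.08 and 1.55 ± 0.09. HOXB-AS3 and HOXB-AS1 (2.36 ± 0.12 and 2.34 ± 0.25) were the 2 members from the HOXB cluster. ZEB1-AS1 was at 1.05 ± 0.29 and 1.07 ± 0.31 beside ZEB1, a repressor of epithelial genes, at 0.21 ± 0.19 and 0.13 ± 0.02.

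The 22 members beside genes of chromatin and general transcription were all below their sense gene, with medians of 1.33 and 5.46. WAC-AS1, beside a gene for an adaptor in histone H2B ubiquitination, was the highest at 3.64 ± 0.17 and 3.58 ± 0.14, under WAC at 7.41 ± 0.05 and 7.50 ± 0.08. The 16 beside genes of RNA processing and translation had medians of 2.03 and 6.18, with 1 antisense RNA above its gene. PCBP1-AS1, at 4.44 ± 0.20 and 4.34 ± 0.11, spans PCBP1, an intronless gene for an RNA-binding protein, at 8.64 ± 0.09 and 8.79 ± 0.03. Among the 13 beside ubiquitin and proteasome genes, OTUD6B-AS1 (5.04 ± 0.09 and 4.96 ± 0.15) was nearly as high as OTUD6B (5.36 ± 0.07 and 5.34 ± 0.08), and PSMA3-AS1 (3.94 ± 0.09 and 3.96 ± 0.07) was below PSMA3 (7.88 ± 0.11 and 7.79 ± 0.04), a proteasome subunit.

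Of the 23 members beside mitochondrial and metabolic enzymes, 10 were above their gene, a share that was not tested against the other roles. The sense gene passed the level filter for 16 of the 23. ENTPD1-AS1 was at 3.74 ± 0.09 and 3.85 ± 0.18 beside ENTPD1, the ectonucleotidase CD39, at 1.17 ± 0.04 and 1.28 ± 0.13. Among 12 beside secreted, matrix and surface genes, WNT5A-AS1 was at 4.29 ± 0.20 and 4.51 ± 0.14 under WNT5A, a non-canonical Wnt ligand, at 5.77 ± 0.13 and 6.07 ± 0.04, and HAS2-AS1 at 4.23 ± 0.17 and 4.27 ± 0.19 close to HAS2, a hyaluronan synthase, at 4.95 ± 0.18 and 4.98 ± 0.09. The 11 beside membrane transport genes had medians of 1.60 and 3.32, with KCNMB2-AS1 the highest at 2.82 ± 0.26 and 2.74 ± 0.48. The 15 beside zinc finger genes had medians of 1.72 and 2.93, with ZNF503-AS2 the highest at 2.99 ± 0.24 and 3.12 ± 0.12.

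No member passed the test between the groups. With limma on log2(TPM + 1) and Benjamini-Hochberg adjustment over all 15590 tested entries, 0 of 247 members had an adjusted p under 0.05, beside 101 of all tested entries (0.648%, made up of 0.34% higher and 0.308% lower with Siglec-XII). The lowest adjusted p among the members was 0.0838. At an unadjusted p of 0.05 or less there were 17 members (6.88%), fewer in proportion than the 16.5% of all tested entries. Of these, 14 were higher with Siglec-XII and 3 lower, beside 13.9% and 2.61% of all entries. No member differed by 1 or more on the log2(TPM + 1) scale, which understates the change of low RNAs. In mean TPM, 4 members differed by 2-fold or more, and no count over all tested entries is given on this measure. Higher with Siglec-XII were 3 of them, NAV2-AS1 (2.48-fold), FLG-AS1 (2.14-fold) and SAMD12-AS1 (2.03-fold). Of these, NAV2-AS1 was picked out after its values were seen and was listed at 0 in 1 Siglec-XII sample. The groups did not overlap for 11 members (4.45%; 10.8% of all entries), 9 of them higher with Siglec-XII and 2 lower (9.17% and 1.68% of all entries). The 2 lower were LRRC75A-AS1 and SSSCA1-AS1, and for SSSCA1-AS1 the level rule itself set the groups apart.

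The log2 differences, Siglec-XII minus empty vector, had a median of 0.02 and quartiles of -0.10 and 0.18, beside a median of 0.07 over all tested entries. They were positive for 137 members and negative for 110, while 68.1% of all entries were positive. That split depended on the scaling of the samples, with 109 positive and 138 negative after quantile normalization and 113 and 134 with equal upper quartiles, where the median over all entries was 0.01 in both. The 17 likewise became 14 under either scaling, 9 higher and 5 lower. The 95% interval of the difference lay within ±1 on this scale for 236 of the 247 members and within ±0.5 for 112. At 1 to 3 TPM a 2-fold change in TPM is less than 1 unit of this scale, so these bounds do not exclude it for low members. Its median half-width was 0.37 log2 units, with 0.41 for members at a level under 2 and 0.21 for those at 4 or more.

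The share of small p-values was lower at low levels in each class of gene. At levels under 2, from 2 to under 4 and at 4 or more, 4.55%, 10% and 13% of members had an unadjusted p of 0.05 or less. Other long non-coding RNAs gave 4.58%, 11% and 17.6%, and protein-coding genes 6.39%, 13.2% and 23.3%. Only 23 members were at 4 or more, and the part of level in the lower share of the members was not tested further.

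**Figure D3:**
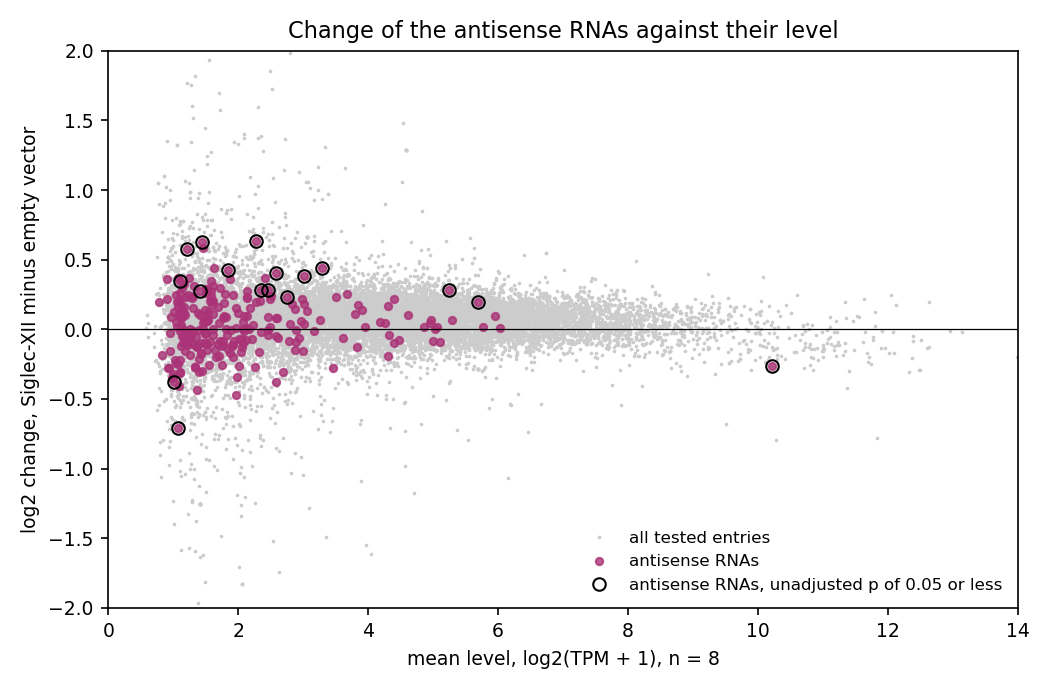
Log2 difference, Siglec-XII minus empty vector (vertical axis), against the mean log2(TPM + 1) of 8 samples (horizontal axis) for all 15590 tested entries (grey), the 247 antisense RNAs (purple) and the 17 of them with an unadjusted p of 0.05 or less (ringed). The purple points crowd at low levels near 0, and 53 entries, none of them antisense RNAs, lie outside the vertical range.

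The lowest adjusted p belonged to LRRC75A-AS1, the snoRNA host. It was at 10.23, 10.32, 10.34 and 10.48 in the empty vector samples and 10.07, 10.04, 10.13 and 10.07 with Siglec-XII, a difference of -0.26 (SE 0.06, limma adjusted p = 0.0838). The adjusted p ranged from 0.0220 to 0.206 over the alternatives, the lowest with equal upper quartiles. GAS5, the other snoRNA host named here and a sense gene, was at 8.14 ± 0.14 and 7.88 ± 0.07 (limma adjusted p = 0.137).

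SAP30L-AS1, which shares its promoter window with a subunit of a histone deacetylase complex, was at the edge of the level limit. It was at 1.19, 1.01, 1.52 and 1.10 in the empty vector samples and 0.60, 0.88, 0.78 and 1.03 with Siglec-XII, with overlap between the groups (-0.38, limma adjusted p = 0.292). Such low values rest on the pseudocount, and at 0.1 in place of 1 the difference was -0.70. SSSCA1-AS1, named above for the way it passed the rule, was at 1.06 ± 0.10 and 0.78 ± 0.12, a difference of -0.28, or -0.54 with a pseudocount of 0.1.

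Among the 14 with a positive difference, ZNF433-AS1 and SAMD12-AS1 had the largest. ZNF433-AS1, which spans a zinc finger gene on chromosome 19, was at 1.79, 2.39, 1.92 and 1.69 in the empty vector samples and 2.53, 2.52, 2.83 and 2.45 with Siglec-XII, so the groups did not overlap (0.64, limma adjusted p = 0.121). Its second empty vector sample was the nearest to the other group, and without it the difference was 0.79 and the adjusted p 0.0380. SAMD12-AS1 was at 1.12, 1.23, 1.04 and 1.10 and at 1.48, 1.82, 2.03 and 1.66, again without overlap (0.63, limma adjusted p = 0.102), and at 0.94 with a pseudocount of 0.1. Neither sense gene passed the test, with ZNF433 at 2.63 ± 0.19 and 2.61 ± 0.16 and SAMD12 at 3.39 ± 0.14 and 3.41 ± 0.11.

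FLG-AS1, which spans the skin barrier gene filaggrin, was at 0.77, 0.89, 1.12 and 0.89 in the empty vector samples and 2.09, 1.35, 1.10 and 1.44 with Siglec-XII, with overlap and with most of the spread in the Siglec-XII samples (0.58, and 0.94 with a pseudocount of 0.1). CYP1B1-AS1, beside an oxygenase gene of the aryl hydrocarbon response, was at 3.31, 3.15, 3.11 and 2.68 and at 3.45, 3.65, 3.49 and 3.42, without overlap (0.44, limma adjusted p = 0.159). CD27-AS1 was at 1.63 ± 0.24 and 2.05 ± 0.26 while CD27, a receptor of lymphocytes, was at 0.11 ± 0.13 and 0.02 ± 0.04. The other 9 had differences of 0.19 to 0.41, with FGD5-AS1 the most precise at 0.19 (SE 0.05, limma adjusted p = 0.137) and STX18-AS1 at 0.41. LIMD1-AS1 (0.38) is 1 of the 11 members whose exons lie mostly within those of the sense gene.

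**Figure D4:**
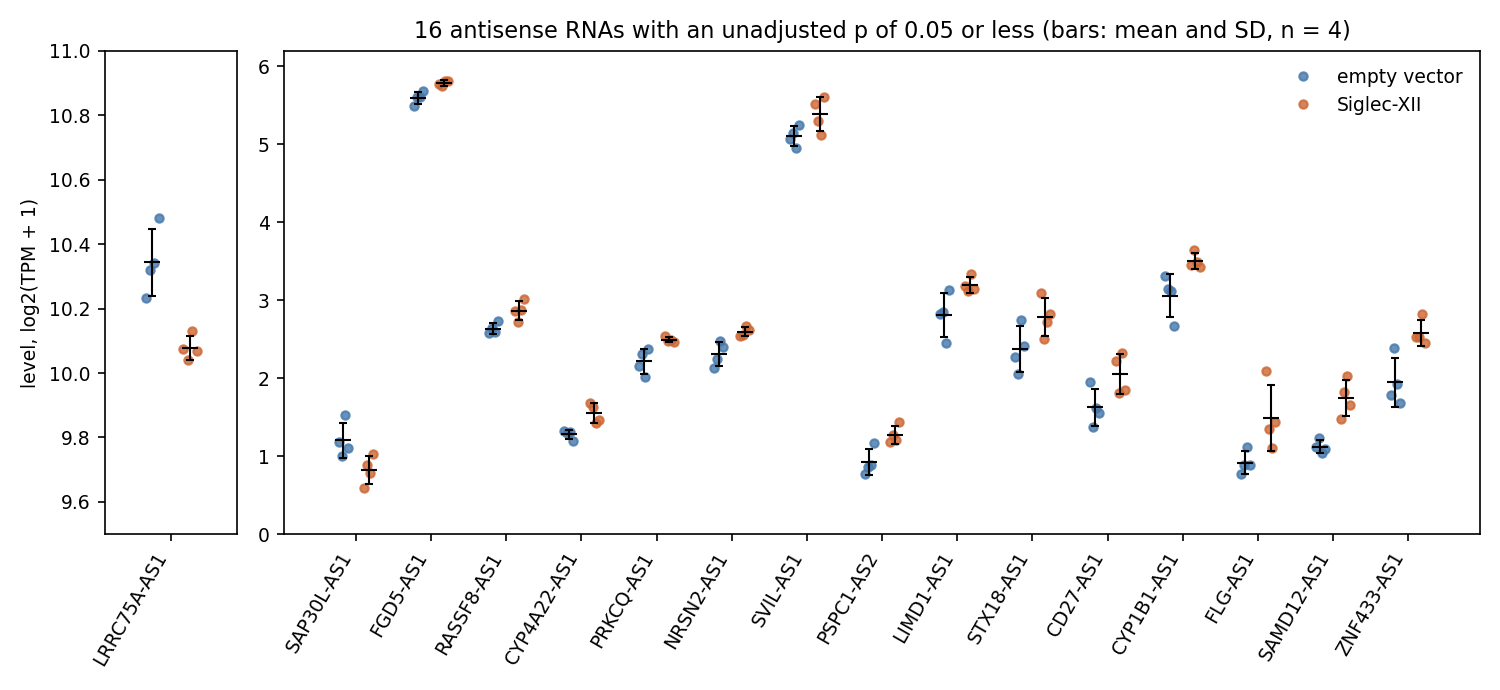
Level of 16 antisense RNAs with an unadjusted p of 0.05 or less, log2(TPM + 1) on the vertical axis, 1 point per sample, with bars for the mean and SD of 4 samples. LRRC75A-AS1 has an axis of its own that starts at 9.5. The groups stand apart for LRRC75A-AS1, SAMD12-AS1 and ZNF433-AS1 and overlap for SAP30L-AS1 and FLG-AS1.

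The sense genes were tested in the same fit. Of 202 distinct sense genes that passed the filter, 0 had an adjusted p under 0.05 (0.648% of all entries) and 42 (20.8%) an unadjusted p of 0.05 or less, 35 higher with Siglec-XII and 7 lower, beside 13.9% and 2.61% of all entries. The direction of these rested on scaling, with 15 higher and 15 lower after quantile normalization and 17 and 16 with equal upper quartiles. Their median level was 4.73, and 16.5% of all entries had such a p. The groups did not overlap for 30 of them (14.9%), beside 10.8% of all entries.

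The 2 lowest adjusted p-values came from TPT1 and MCM3AP. TPT1 had a difference of -0.31 (SE 0.06, limma adjusted p = 0.0545) with no overlap between the groups, beside a difference of -0.00 (SE 0.18) for TPT1-AS1. MCM3AP, a factor in mRNA export, was at 4.97, 4.88, 5.15 and 4.95 in the empty vector samples and 5.29, 5.31, 5.43 and 5.49 with Siglec-XII (0.39, limma adjusted p = 0.0552), beside MCM3AP-AS1 at 2.38 ± 0.22 and 2.59 ± 0.25. Without the third empty vector sample the adjusted p of MCM3AP was 0.0483.

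The differences of antisense RNA and sense gene were then set side by side. Of 205 pairs with a tested sense gene, 108 had differences of the same sign, 83 both positive and 25 both negative, while 31 had a positive antisense and a negative sense difference and 66 the reverse. Across these pairs the differences had a Pearson r of 0.01 and a Spearman rho of 0.05, from the same 8 libraries. In 11 of the 20 shared-window pairs with a tested sense gene the signs were the same. An unadjusted p of 0.05 or less was found for 17 of all 247 members (6.88%) and 42 of the 202 sense genes (20.8%). Both genes had such a p in 2 of the 205 pairs, a number that was not tested against unrelated calls.

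In 1 of the 2 the signs were the same. NRSN2-AS1 was at 2.13, 2.25, 2.47 and 2.40 in the empty vector samples and 2.54, 2.56, 2.67 and 2.62 with Siglec-XII (0.28, limma adjusted p = 0.225), and NRSN2, a neuronal vesicle membrane protein gene, at 4.97 ± 0.04 and 5.17 ± 0.07 (0.20, limma adjusted p = 0.137). In SVIL-AS1 and SVIL, an actin- and myosin-binding membrane protein gene, they were opposite. SVIL-AS1 was at 5.06, 5.14, 4.95 and 5.25 and at 5.52, 5.30, 5.12 and 5.61, with overlap (0.28, limma adjusted p = 0.241), and SVIL at 7.31 ± 0.12 and 7.09 ± 0.13 (-0.22, limma adjusted p = 0.222). SVIL-AS1 is annotated as a pseudogene, so its reads may be uncertain.

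**Figure D5:**
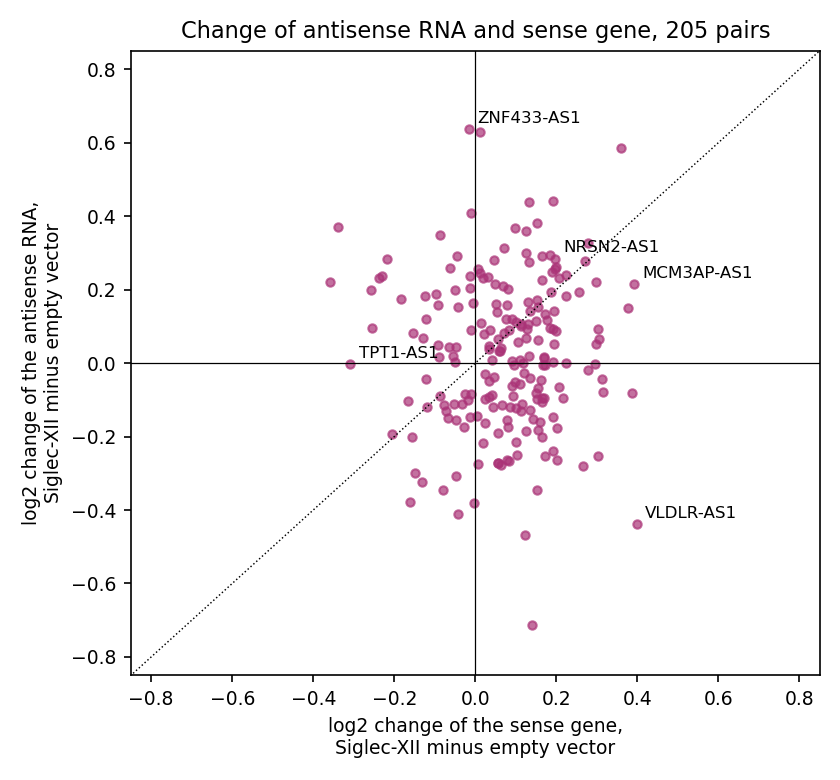
Log2 difference, Siglec-XII minus empty vector, of the antisense RNA (vertical axis) against that of its sense gene (horizontal axis) for 205 pairs, with solid lines at 0 and a dotted line of equal difference. The points form a round cloud shifted to positive sense values, with a Pearson r of 0.01.

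The genes whose products cut back or sense antisense RNA were described last. They were 34 genes of the nuclear exosome and its adaptors, RNA interference and double-stranded RNA binding, with XRN2 among them. All 34 passed the level filter, at 1.24 to 8.45. None had an adjusted p under 0.05 (0.648% of all entries). At an unadjusted p of 0.05 or less there were 8, 7 higher with Siglec-XII and 1 lower, beside 13.9% and 2.61% of all entries. The median difference was 0.06 beside 0.07, and 26 of the 34 were positive, beside 68.1% of all entries. These counts hold for the deposited scale. No count under another scaling is given for this list, while the directions of the members and sense genes moved with scaling.

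The higher ones lay among the double-stranded RNA and interference genes. ADAR, which edits adenosine in double-stranded RNA, was at 5.63, 5.78, 5.76 and 5.76 in the empty vector samples and 6.01, 5.92, 6.01 and 6.02 with Siglec-XII (0.26, limma adjusted p = 0.0719). IFIH1, the sensor MDA5, was at 1.27, 1.28, 1.22 and 1.20 and at 1.62, 1.75, 1.83 and 2.10 (0.58, limma adjusted p = 0.0978). DICER1, which cuts double-stranded RNA to small RNAs, was at 4.09 ± 0.06 and 4.49 ± 0.19. The groups did not overlap for these 3. Also higher were AGO1 (4.22 ± 0.06 and 4.47 ± 0.07), AGO2 (4.65 ± 0.28 and 5.04 ± 0.15) and DHX9 (7.34 ± 0.08 and 7.54 ± 0.05), which bind small or double-stranded RNA. The 1 lower gene was EXOSC8, a subunit of the exosome ring, at 6.54 ± 0.15 and 6.38 ± 0.02.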

How the data were processed

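RNA-seq was measured in 8 samples, 4 per group. The authors quantified reads with kallisto (version 0.45.0 in the submitters' processing notes) on hg19 and deposited 1 table of log2(TPM + 1) per gene entry, which was used as deposited. The labels name a strand-specific total RNA kit and the methods a stranded mRNA kit. Depth is unknown because TPM sums to 1e+06 per sample, so counting precision could not be given. Entries at 1 TPM or more in at least 4 samples (15590) were fitted with limma 3.58.1 in R 4.3.3 (lmFit, eBayes with trend) and adjusted by Benjamini-Hochberg. The same fit was tested on simulated data. SIGLEC12 was compared by an exact permutation test. Positions came from GENCODE on GRCh37 by gene identifier (244 of 247 members), promoter windows from RefSeq GRCh38.p14 by symbol.

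Members, lists and tests were chosen with earlier results of these data known. A few genes are not reported here by name. Named were the members with the largest differences at an unadjusted p of 0.05 or less, the highest levels, the widest gaps to the sense gene, those next to the level limit, the closest starts and a short list. The roles of sense genes, the examples per role and the printed windows were chosen after values were seen. The alternatives were another pseudocount, filter, scaling or variance prior, a replicate block, small structured RNAs left out, the exon and level subsets and each sample left out in turn. Same-numbered samples of the 2 groups had correlations of -0.07 to 0.06, so their numbers were not treated as pairs. Figures were drawn with matplotlib 3.10.9 in Python 3.11.15.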

Additional observations from a re-analysis of the deposited data

Results flagged for a closer look

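In 7 of the 162 groups of 4 samples checked, 1 sample lay far from the other 3 by Dixon's criterion, where chance gives about 1 group in 20. All values are log2(TPM + 1). In the empty vector samples, BFSP2-AS1 was at 5.06 in replicate 1 and at 5.29 to 5.33 in the others, NUTM2A-AS1 at 5.39 in replicate 4 and 5.04 to 5.09 in the others, and THAP9-AS1 at 5.96 in replicate 4 and 5.88 in the others. SSSCA1-AS1 was at 1.20 in empty vector replicate 3 and at 1.0 to 1.03 in the others. The sense gene PCBP1 was at 8.50 in empty vector replicate 1 and at 8.67 to 8.68 in the others. With Siglec-XII, CHMP1B-AS1 was at 5.72 in replicate 4 and 6.11 to 6.17 in the others, and VPS9D1-AS1 at 4.89 in replicate 1 and 5.03 to 5.05 in the others.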

How the results depend on the processing

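The count of 0 members with an adjusted p under 0.05 became 1 with equal upper quartiles (LRRC75A-AS1, log2 difference -0.33, limma adjusted p = 0.0220) and ranged from 0 to 1 with each sample left out (ZNF433-AS1, 0.79 and limma adjusted p = 0.0380, without empty vector replicate 2). The 17 members at an unadjusted p of 0.05 or less became 6 where a mean TPM of at least 5 was asked, which leaves 58 members, and were 14 to 22 otherwise. The count of 0 sense genes became 1 with a pseudocount of 0.1 and with equal upper quartiles (TPT1) and 2 with a mean TPM of at least 5 (TPT1 and MCM3AP), and ranged from 0 to 1 with each sample left out (MCM3AP, 0.44, limma adjusted p = 0.0483, without empty vector replicate 3). The antisense RNA was above the sense gene in 63 of 242 pairs and in 25 of the 78 without shared exon bases. Both sets include pairs whose sense gene did not pass the level filter. With the replicate block, for numbers that were not shown to pair the samples, 0 members and 0 sense genes passed, and the unadjusted p was 0.05 or less for 16 and 43. Of 1264 alternative values for 81 genes named by the rule, 1240 kept their side of the threshold within the spread, 17 moved, 7 newly passed and 0 called directions were reversed. The cause of these shifts was not tested. With 4 samples of unknown depth per group, members near 1 TPM could not be measured more closely than the intervals given.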
